A study of Mus musculus with 12 samples.

Results

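Transcripts of 8 interleukin-1 (IL-1) family and receptor genes were followed in mouse splenic dendritic cells: Il1a, Il1b, Il1rn, Il1r1, Il1r2, Il1rap, Il18 and Casp1. The genes were listed by function, with earlier results of these data known. Every probe set that the platform annotation gave to 1 of them alone was taken. That made 9 probe sets of the 12422 on the array, covering 8 of 8251 named genes. Il1r2 had 2 probe sets, told apart here by their name endings as the _at and the _f_at probe set, and each other gene had 1. The sources were spleen cells sorted for high CD11c, as a CD4+, a CD8+ and a double-negative (DN, CD4- CD8-) population. Each population was processed either straight from the spleen (fresh) or once it had spent 2 h in culture medium at 37 °C (cultured), with 2 arrays in each of the 6 groups. No stimulus other than the medium is named in the labels, and neither the mouse strain nor the age is given. The titles number the arrays of a group as experiments 1 and 2, and nothing says whether these came from separate animals, so the p-values measure only the spread between these arrays, which may be technical.

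IL-1 is a pair of agonists, IL-1 alpha (Il1a) and IL-1 beta (Il1b), which bind the signalling receptor Il1r1 and bring in the accessory chain Il1rap. The pathway is held in check by Il1rn, the IL-1 receptor antagonist, which occupies the receptor without signalling, and by Il1r2, a decoy receptor that binds IL-1 without passing on a signal. Interleukin-18 (Il18) is a related cytokine that acts on T and NK cells, and caspase-1 (Casp1) cuts the precursors of IL-1 beta and IL-18 into their active forms. Dendritic cells are known as a source of these cytokines when they mature.

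The sequences upstream of the start sites of the 4 genes that changed in culture are shown because the values below turn on these genes. Each is the 250 bases before a start site, in RefSeq for build GRCm38.p6, with capitals for the motif matches named next. Il1rn has 3 start sites in that table, and the one furthest upstream is shown. The listed start site of Il1r2 lies inside its annotated gene span (chromosome 1, 40084692 to 40125230).
Il1b, chr2:129371140-129371389, minus strand: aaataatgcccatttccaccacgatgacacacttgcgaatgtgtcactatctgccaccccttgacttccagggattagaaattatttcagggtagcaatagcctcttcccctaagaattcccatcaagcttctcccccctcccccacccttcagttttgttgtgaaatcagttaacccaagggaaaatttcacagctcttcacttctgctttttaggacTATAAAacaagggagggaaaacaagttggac
Il1rn, chr2:24336610-24336859, plus strand: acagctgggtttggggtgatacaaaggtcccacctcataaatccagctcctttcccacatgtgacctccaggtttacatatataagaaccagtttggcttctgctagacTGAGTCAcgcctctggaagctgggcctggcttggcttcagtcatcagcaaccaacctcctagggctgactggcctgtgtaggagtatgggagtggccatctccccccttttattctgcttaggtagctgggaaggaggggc
Il1r2, chr1:40085843-40086092, plus strand: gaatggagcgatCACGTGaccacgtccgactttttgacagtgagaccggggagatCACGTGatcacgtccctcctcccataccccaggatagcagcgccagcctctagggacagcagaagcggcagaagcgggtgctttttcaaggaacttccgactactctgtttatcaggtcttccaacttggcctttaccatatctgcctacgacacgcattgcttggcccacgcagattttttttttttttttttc
Il18, chr9:50554450-50554699, plus strand: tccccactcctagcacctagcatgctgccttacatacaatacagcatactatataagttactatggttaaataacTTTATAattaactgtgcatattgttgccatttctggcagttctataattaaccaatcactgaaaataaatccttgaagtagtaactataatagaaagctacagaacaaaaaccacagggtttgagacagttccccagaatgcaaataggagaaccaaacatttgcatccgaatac
In the full windows of 300 bases (250 before and 50 after the start), 5 motifs were searched on both strands, and all 8 genes had at least 1 window, 11 in all. Il1b held TATAAA with its first base at -31 from the start. The Il1rn window shown held the AP-1 motif TGANTCA at -141. Il18 held TATAAA on the minus strand at -175. Il1r2 held the E-box CACGTG at -238 and again at -195; this motif was added to the search after its sequence had been seen. The NF-kappaB consensus was matched in 1 of the 11 windows, the second Il1r1 window, against 8.5% of all 32851 windows of the same length in the table. AP-1 was matched in 2 of the 11 and in 7.8% of all windows, TATAAA in 4 and 13.6%, the PU.1 core GAGGAA in 2 and 28.3%, and the E-box in 2 and 7.2%. Of these 5 motifs, none was matched in all 4 of the sequences shown. A match describes letters in a window and is not evidence of a bound factor.

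On the 12 arrays the values were Average Difference intensities, scaled by the authors, and 19.7% to 26.5% of an array's values were below 0. A value above 91.37 was taken as above the detection floor, and the 6159 probe sets above it on at least 2 arrays were tested with limma on a generalised log2 scale, where low and negative values stay defined. A call means an adjusted p below 0.05. Differences are given on that log2 scale with their standard error. Where 1 side alone lay below the floor on all its arrays, members and called list genes also have the change as "at least N-fold" against the floor. Of 11 listed dendritic cell genes, 5 were above the floor on 12 of 12 arrays: Itgax (874.5 to 3209.8), Flt3 (613.1 to 3103.4), Cd74, H2-Ab1 and Zbtb46. Of the others, Cadm1 was above it on 11 arrays, Sirpa on 9, Cd4 on 6, Dpp4 on 5, and Cd8a and Xcr1 on 4 each. One label of fresh CD8+ replicate 1 calls its cells CD4 positive, while its title and source say CD8+; its Cd8a value was 1210.4 and its Cd4 value 92.0, and it was used as CD8+. That array also had the highest ratio of 3' to 5' Gapdh control probe sets, a measure of RNA integrity, at 2.55. The ratio was 1.966 for cultured CD4+ replicate 1, 1.341 for cultured DN replicate 1, and 0.89 to 1.044 on the other 9 arrays.

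Of the 9 probe sets, 6 passed the filter, for 5 of the 8 genes; Il1a, Il1r1 and Il1rap did not. A probe set could pass through the groups in which it was high, so the share of members called is read with that in mind. In the mean culture effect over the 3 subsets, 4 member probe sets (Il1b, Il1rn and both of Il1r2) rose and 1 (Il18) fell, while 17.0% of all tested probe sets rose and 22.3% fell. By increase, the 2 Il1r2 probe sets ranked 4 and 6 and the agonist Il1b 356 among the 6159. Both Il1r2 probe sets were under the floor on both fresh CD8+ arrays. The _at probe set was also under it on fresh CD4+ replicate 2 (82.7) and fresh DN replicate 2 (87.9). The ranks of both probe sets thus depend in part on how such values are handled. With values under the floor set to the floor, the mean rise on the _at probe set was 4.47, against 4.80 in the main fit. Il1rn fresh and Il18 cultured were under the floor on all arrays, so the size of their change, and with it their rank, depends on how such values are handled and no rank is given. All groups were sorted bulk cells, so fewer cells of a type and less RNA per cell cannot be told apart in any of these values.

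**Figure D1:**
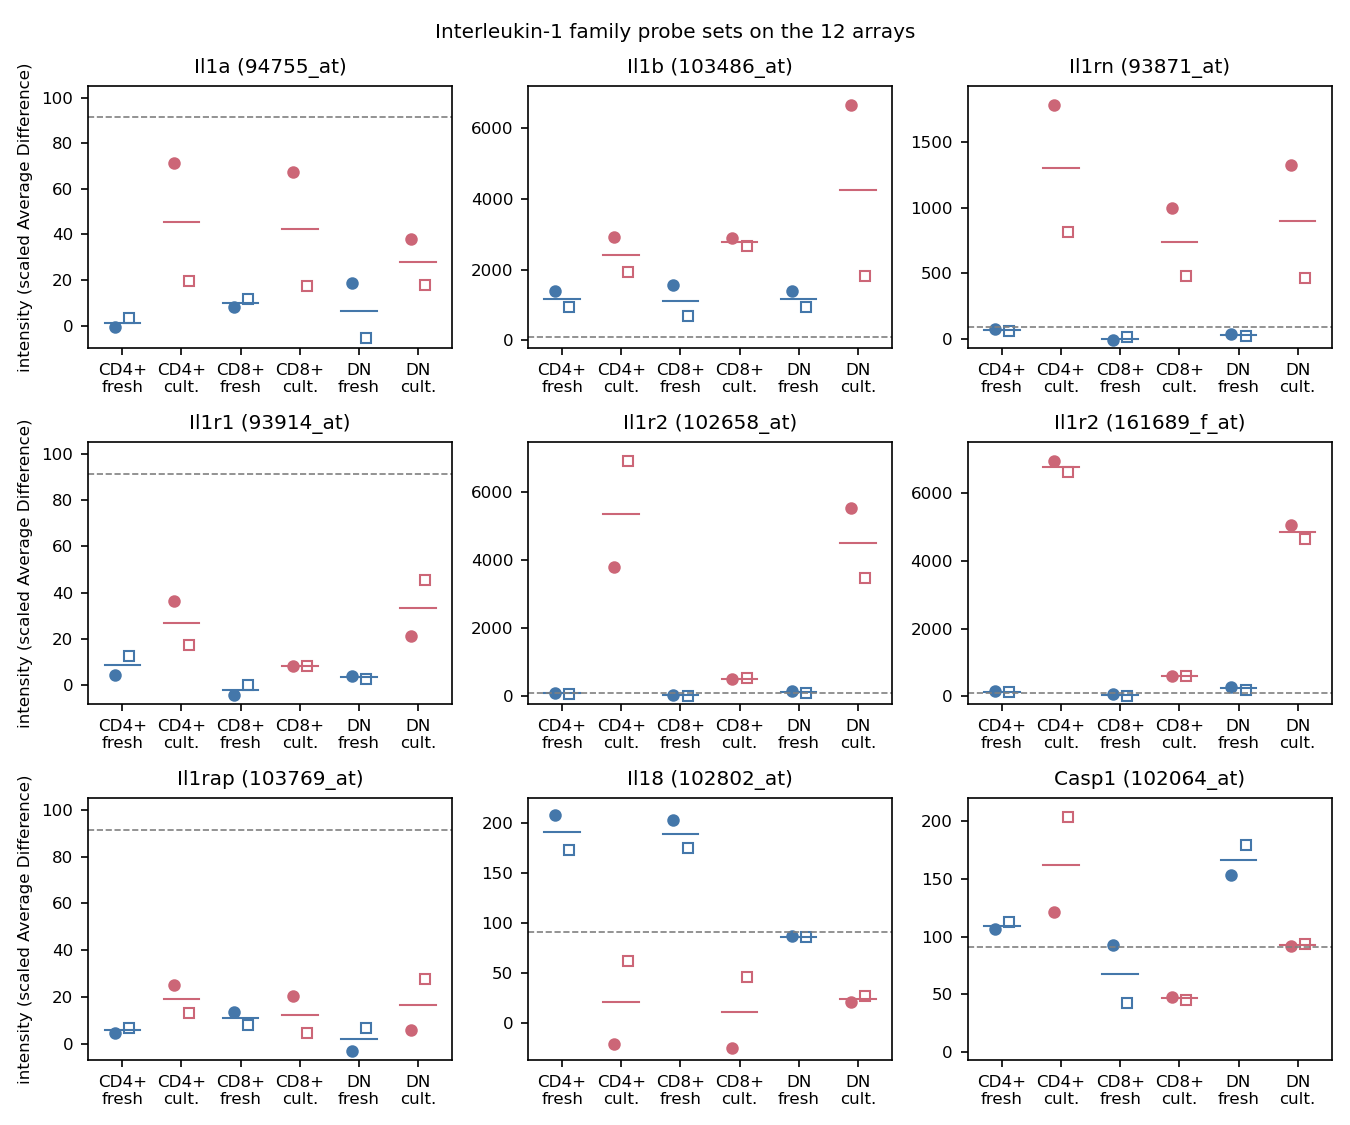
Intensity of each of the 9 member probe sets on each of the 12 arrays, with its own axis in each panel; blue is fresh and red is cultured, filled circles are replicate 1, open squares replicate 2, short bars the mean of the 2 arrays and the dashed line the detection floor of 91.37. Il1rn and both Il1r2 probe sets are near or under the floor fresh and far above it cultured, Il18 is under it on all cultured arrays, and Il1a, Il1r1 and Il1rap are under it on all 12 arrays.

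Il1b, the agonist, was already well above the floor at isolation. Its fresh intensities were 1384.5 and 951.8 in CD4+ cells, 1559.6 and 688.1 in CD8+ cells, and 1406.0 and 945.2 in DN cells. After culture they were 2921.4 and 1931.7 in CD4+ cells, 2907.0 and 2673.0 in CD8+ cells, and 6658.6 and 1821.8 in DN cells. Every cultured array lay above every fresh array, and replicate 1 lay above replicate 2 in 6 of 6 groups. Averaged over the subsets Il1b rose by 1.36 ± 0.32 on the log2 scale, or 2.56-fold (limma, adjusted p = 0.00698). Within a single subset the rise was 1.05 ± 0.56 in CD4+, 1.43 ± 0.56 in CD8+ and 1.59 ± 0.56 in DN cells, with adjusted p of 0.195, 0.148 and 0.0932 in limma, none of which passed. With the experiment number as a replicate block, the adjusted p was 0.0319 in CD8+ and 0.0167 in DN cells, and both passed. The CD8+ value also passed without the 3 arrays of high Gapdh ratio (2.02, adjusted p = 0.00225), and the DN value without cultured DN replicate 2 (2.53, adjusted p = 0.0166). In the other direction, the CD8+ value was 0.84 (adjusted p = 0.504) without fresh CD8+ replicate 2. The DN value was 0.66 without cultured DN replicate 1 (adjusted p = 0.591) and again 0.66 with the high-Gapdh-ratio arrays dropped (0.207). The 2 cultured DN arrays lay further apart than those of any other group for this gene.

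No difference in Il1b between subsets was called, fresh or cultured. Fresh CD8+ cells differed from CD4+ cells by -0.15 ± 0.56 and from DN cells by the same amount. In culture they differed by 0.23 ± 0.56 from CD4+ and by -0.32 ± 0.56 from DN cells (limma, adjusted p = 0.868 and 0.895). With 2 arrays a group, the standard error of 0.56 sets how small a subset difference in Il1b could be seen. Il1a, the other agonist, stayed under the floor on 12 of 12 arrays, at -5.5 to 18.8 fresh and 17.6 to 71.5 cultured. Fitted without the filter, its mean difference after culture was 0.86 ± 0.29 (limma, adjusted p = 0.0608), all of it between values below the floor, so Il1a was not detectable here in either state.

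Il1rn, the receptor antagonist, was below the floor at isolation and above it after culture in all 3 subsets. Fresh intensities were 73.1 and 55.8 in CD4+, -10.8 and 9.5 in CD8+, and 38.5 and 21.5 in DN cells. Cultured intensities were 1787.4 and 816.9 in CD4+, 997.7 and 481.4 in CD8+, and 1330.4 and 466.9 in DN cells. The lowest cultured array thus lay far above the highest fresh one, and replicate 1 was above replicate 2 in each cultured group. The mean rise was 4.42 ± 0.33 on the log2 scale (limma, adjusted p = 5.24e-06), which is at least 9.01-fold against the floor. By subset Il1rn rose by 4.08 ± 0.57 in CD4+ cells, at least 12.5-fold, by 4.95 ± 0.57 in CD8+ cells, at least 7.17-fold, and by 4.23 ± 0.57 in DN cells, at least 8.16-fold. The limma adjusted p of these 3 was 0.00129, 0.000535 and 0.00149. With values under the floor set to the floor the mean rise was 3.25, and that in CD8+ cells 2.92. With 1 array left out, the value of DN cells ranged from 3.48 without cultured DN replicate 1 to 4.98 without replicate 2. No difference in Il1rn between subsets was called, fresh or cultured.

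Il1r2, the decoy receptor, had a larger fitted rise than the other tested members in the mean and in CD4+ and DN cells, while in CD8+ cells that of Il1rn was larger. It was the one member whose level differed between subsets by the test. On its _at probe set, fresh intensities were 103.4 and 82.7 in CD4+, 40.6 and 24.7 in CD8+, and 163.6 and 87.9 in DN cells. After culture they were 3802.0 and 6928.7 in CD4+, 499.3 and 543.0 in CD8+, and 5528.6 and 3492.2 in DN cells. The CD8+ arrays were the lowest in both states, with no overlap with either other subset. This probe set rose by 5.71 ± 0.39 in CD4+ cells, by 3.56 ± 0.39 in CD8+ cells (at least 5.39-fold) and by 5.14 ± 0.39 in DN cells. The adjusted p in limma was 1.86e-05, 0.000407 and 5.79e-05, and the mean rise was 4.80 ± 0.23 (adjusted p = 3.05e-07).

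The _f_at probe set of Il1r2, whose ending marks a design that can match a family of sequences, gave the same order. Fresh intensities were 160.7 and 123.1 in CD4+, 71.3 and 9.7 in CD8+, and 287.5 and 182.4 in DN cells. Cultured ones were 6956.0 and 6613.5 in CD4+, 589.3 and 611.3 in CD8+, and 5048.3 and 4642.5 in DN cells. Here too the CD8+ arrays lay below all arrays of the other subsets in the same state. The rise was 5.55 ± 0.42 in CD4+, 3.68 ± 0.42 in CD8+ (at least 6.21-fold) and 4.39 ± 0.42 in DN cells (limma, adjusted p = 3.55e-05, 0.000535 and 0.000252). Averaged over the subsets it was 4.54 ± 0.24 (adjusted p = 5.18e-07). In CD8+ cells this value moved to 4.41 without fresh CD8+ replicate 1 and to 2.95 without fresh CD8+ replicate 2. With values under the floor set to the floor, the rise in CD8+ cells was 2.51 and 2.72 on the 2 probe sets.

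Across the members, 4 of the 6 tested probe sets were called for culture within CD4+ cells, against 18.4% of all tested probe sets. In CD8+ cells 4 were called, against 8.13%, and in DN cells 3, against 9.90%. The calls common to all 3 subsets were Il1rn and both Il1r2 probe sets; Il18 made the fourth in CD4+ and in CD8+ cells. The plot of the culture effect by subset shows these values beside each other.

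**Figure D2:**
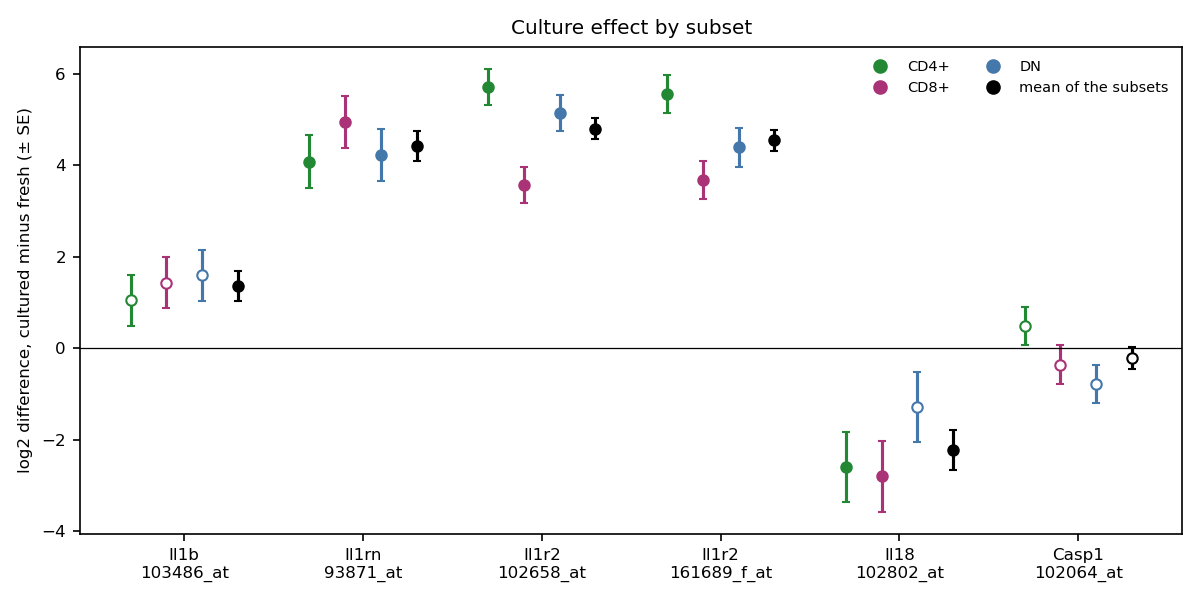
Culture effect (cultured minus fresh, log2 difference with its standard error) of each of the 6 tested member probe sets in CD4+, CD8+ and DN cells and as their mean, with filled points for called differences. By subset, both Il1r2 probe sets sit between 3.56 and 5.71 and Il1rn between 4.08 and 4.95, Il1b lies between 1.05 and 1.59, and Il18 lies below 0 in each subset.

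The comparison between subsets asked which members set CD8+ cells apart. After culture, Il1r2 was lower in CD8+ than in CD4+ cells by -3.30 ± 0.39 on the _at probe set, a 9.84-fold difference, and by -3.50 ± 0.42 on the _f_at probe set, an 11.3-fold difference (limma, adjusted p = 0.00143 for each). Against DN cells it was lower by -3.07 ± 0.39 (8.42-fold, adjusted p = 0.00383) and -3.01 ± 0.42 (8.05-fold, adjusted p = 0.00666). These were the 2 member probe sets called in each of the 2 cultured contrasts, in which 2.29% (CD8+ against CD4+) and 1.30% (CD8+ against DN) of all tested probe sets were called. The contrast with CD4+ cells kept its call without any single array. The contrast with DN cells lost it on the _at probe set without cultured CD8+ replicate 1 (adjusted p = 0.0582) or replicate 2 (0.053), and on the _f_at probe set without the same arrays (0.073 and 0.0762) or without cultured DN replicate 1 (0.0564). Its size stayed between -3.41 and -2.74 on the first and between -3.07 and -2.90 on the second probe set over the alternatives run.

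At isolation the same direction was seen at far lower intensities. On the _f_at probe set fresh CD8+ cells were lower than fresh DN cells by -2.30 ± 0.42, at least 2.39-fold (limma, adjusted p = 0.0201), the one call in the fresh CD8+ against DN contrast, where 1.43% of all tested probe sets were called. That call was lost without fresh CD8+ replicate 2 (-1.57, adjusted p = 0.0506), without fresh DN replicate 1 (-1.98, 0.23), without fresh DN replicate 2 (-2.62, 0.108) and in a fit of the 2 groups alone (0.123). With values set to the floor it was -1.33 (adjusted p = 0.0352). Against fresh CD4+ cells the difference was -1.62, at least 1.49-fold (limma, adjusted p = 0.0871). In that contrast 1.98% of all probe sets were called and no member was. With the replicate block the difference passed (adjusted p = 0.0379). Without fresh CD8+ replicate 1 it was -2.36. It was -0.89 (adjusted p = 0.192) without fresh CD8+ replicate 2 and -0.62 (0.394) with values set to the floor. The _at probe set differed by -1.15 from CD4+ cells, at least 1.01-fold, and by -1.50 from DN cells, at least 1.29-fold. Neither passed (limma, adjusted p = 0.229 and 0.117). The difference from DN cells was -1.70 without the 3 arrays of high Gapdh ratio. With values set to the floor it was -0.42 (adjusted p = 0.867).

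DN and CD4+ cells were not told apart by any member. In this contrast 0% of all tested probe sets were called in limma, fresh or cultured, while 81 fresh and 235 cultured ones had an unadjusted p under 0.05, of which 0 were members. For Il1r2 in culture, the arrays of DN and CD4+ cells overlapped on the _at probe set; on the _f_at probe set both DN arrays lay below both CD4+ arrays, by -0.49 ± 0.42 (limma, adjusted p = 0.998).

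**Figure D3:**
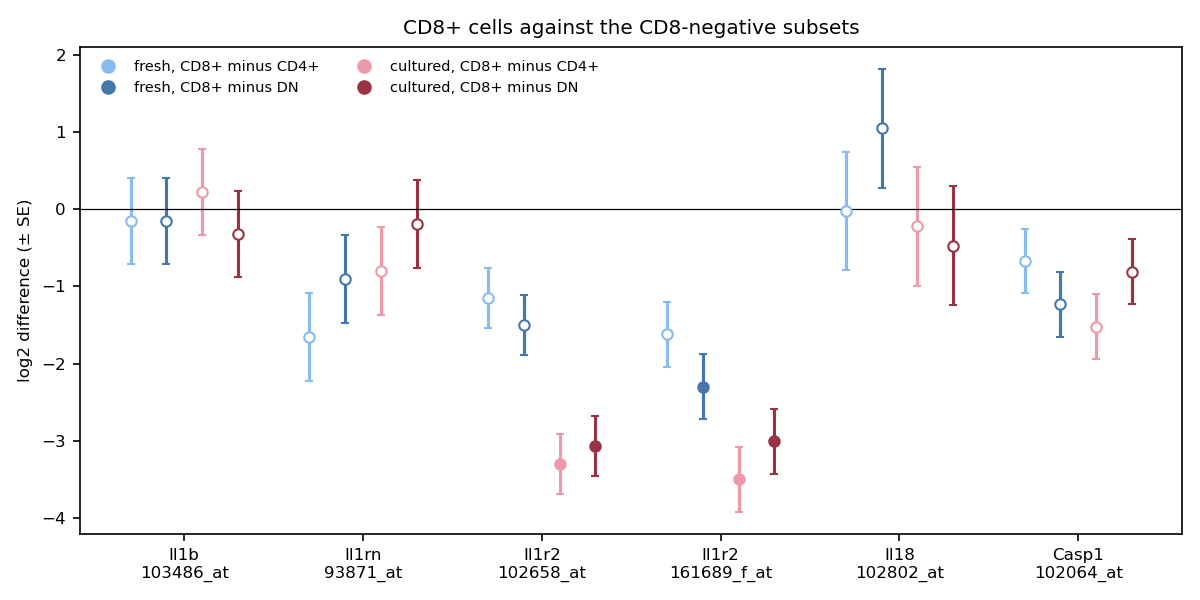
Difference of CD8+ cells from CD4+ and from DN cells (log2 difference, bars of 1 standard error) for the 6 tested member probe sets, fresh in blue and cultured in red, with filled points for called differences. The 4 cultured Il1r2 points lie between -3.50 and -3.01, and the one filled fresh point is the Il1r2 _f_at probe set against DN cells at -2.30.

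Whether culture itself acted differently by subset was tested as an interaction. The rise of Il1r2 in CD8+ cells differed from that in CD4+ cells by -2.15 on the _at probe set (limma, unadjusted p = 0.0025, adjusted p = 0.422). On the _f_at probe set it differed by -1.87 (limma, unadjusted p = 0.009, adjusted p = 0.514). Against DN cells the difference was -1.57 on the _at probe set (limma, unadjusted p = 0.0159, adjusted p = 0.998). It was only -0.71 on the _f_at probe set (limma, unadjusted p = 0.258, adjusted p = 0.998). None of these was called. In the 3 interaction contrasts 0% of all tested probe sets were called, 525, 250 and 127 having an unadjusted p under 0.05 (CD8+ against CD4+, CD8+ against DN, DN against CD4+). Of the 6 member probe sets 2, 1 and 0 were among them. The smaller rise of Il1r2 in CD8+ cells is thus a difference in group means that did not pass the correction. Under 1 alternative, with values set to the floor, the difference from CD4+ cells on the _at probe set was -3.21 (limma, adjusted p = 0.0896).

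Il1r1 and Il1rap, the 2 chains of the signalling receptor, were below the floor on 12 of 12 arrays. Il1r1 had intensities of -4.1 to 12.8 fresh and 8.2 to 45.6 cultured. Il1rap had -3.2 to 13.6 fresh and 4.5 to 27.7 cultured. Fitted without the filter, the mean difference after culture was 0.57 ± 0.19 for Il1r1 (limma, adjusted p = 0.0597) and 0.30 ± 0.20 for Il1rap (adjusted p = 0.306). Neither was detectable on these arrays, which sets no lower limit on what was present. In the same cultured cells the decoy Il1r2 was above the floor on 6 of 6 arrays.

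Il18, the cytokine that acts on T and NK cells, fell. Fresh intensities were 208.7 and 173.7 in CD4+, 202.9 and 174.9 in CD8+, and 87.0 and 86.0 in DN cells. Cultured intensities were -21.4 and 62.5 in CD4+, -25.4 and 46.4 in CD8+, and 21.4 and 26.8 in DN cells. All 6 cultured arrays lay below all 6 fresh ones, and fresh DN arrays, already just under the floor, lay below the 4 other fresh arrays. The mean change was -2.23 ± 0.44 (limma, adjusted p = 0.00267), at least 1.55-fold lower against the floor. Its size depends on how values under the floor are handled, since it was -0.70 with those values set to the floor, and it was called under each of the alternatives run.

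By subset, Il18 changed by -2.60 ± 0.77 in CD4+ cells (at least 2-fold lower; limma, adjusted p = 0.038) and by -2.80 ± 0.77 in CD8+ cells (at least 1.98-fold lower; adjusted p = 0.0479). In DN cells the difference was -1.28 ± 0.77 (adjusted p = 0.313). Both calls were close to the threshold. Of the 24 alternatives with a value for Il18, 11 lost the call in CD4+ cells and 14 that in CD8+ cells. Changes of processing were among them, such as the offset at 0.5 times (limma, adjusted p = 0.0813 in CD4+ and 0.104 in CD8+ cells) and no filter (0.061 and 0.0801). With values set to the floor the 3 differences were -1.06, -1.04 and 0.00. The CD4+ value became -1.47 (adjusted p = 0.217) without cultured CD4+ replicate 1, the array of highest noise, and the adjusted p was 0.166 and 0.156 without the first and the second fresh CD4+ array. The same held without fresh DN replicate 1 (0.0599), fresh DN replicate 2 (0.0608) or cultured DN replicate 2 (0.0506). The CD8+ value became -1.78 (adjusted p = 0.346) without cultured CD8+ replicate 1, and that call was lost without any 1 of the 6 fresh arrays or either cultured DN array, with adjusted p of 0.0632 to 0.169. The fresh difference between CD8+ and DN cells, 1.05 ± 0.77, at least 1.98-fold, did not pass (limma, adjusted p = 0.819). With values set to the floor it was 1.04 and passed (adjusted p = 0.0359).

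Casp1, the protease that matures IL-1 beta and IL-18, stayed near the floor. Fresh intensities were 106.6 and 112.3 in CD4+, 92.9 and 42.5 in CD8+, and 152.7 and 178.8 in DN cells. Cultured ones were 120.9 and 203.3 in CD4+, 47.7 and 45.4 in CD8+, and 91.7 and 93.2 in DN cells. CD8+ arrays were the lowest in each state, and the 2 cultured CD8+ arrays lay under the floor. The mean difference after culture was -0.22 ± 0.24 (limma, adjusted p = 0.489). In culture CD8+ cells differed from CD4+ cells by -1.52 ± 0.42, at least 1.66-fold (limma, adjusted p = 0.102), which did not pass. Without the 3 arrays of high Gapdh ratio the difference was -1.88. With values set to the floor it was -0.78 (adjusted p = 0.194).

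**Figure D4:**
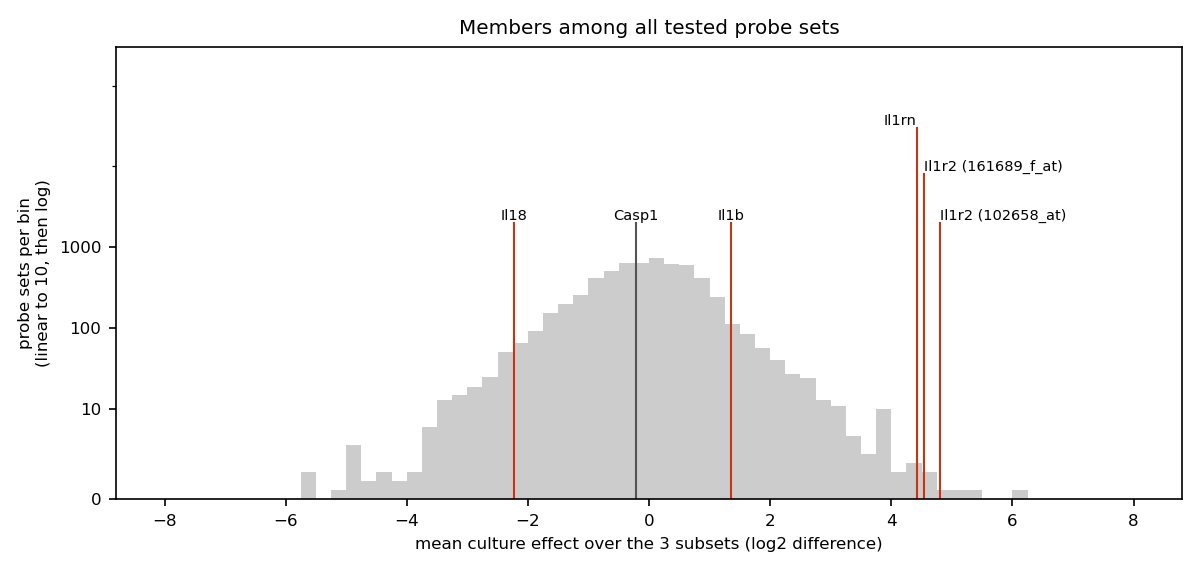
Distribution of the mean culture effect (log2 difference) over the 6159 tested probe sets, with counts per bin on an axis that is linear to 10 and logarithmic above, and lines for the 6 tested member probe sets. Il1r2 (4.80 and 4.54) and Il1rn (4.42) lie in the far right tail, Il1b (1.36) on its shoulder and Il18 (-2.23) on the left.

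The profiles most like each called member over the 12 arrays were taken by Pearson correlation, as a description, since all 12 arrays share the step from fresh to cultured. For Il1b they were Ankrd33b (0.925), Cflar (0.923), an inhibitor of death receptor signalling, and Adam17 (0.916), the protease that sheds TNF. For Il1rn they were Gm9706 (0.983), Ell2 (0.980) and Isg15 (0.979), a ubiquitin-like protein induced by interferon. For Il1r2 they were an Actb probe set (0.975), Tnfrsf11a (0.971), which encodes the receptor RANK, and Dgat1 (0.968), an enzyme of triglyceride synthesis. For Il18 they were Ints9 (0.953), Ss18 (0.944) and Nsmaf (0.934). Ints9 was at -164.1 to 21.5 on cultured arrays, and on fresh arrays Ankrd33b was at 14.7 to 49.1 and Ell2 at 38.8 to 64.4. The correlations of these genes thus rest in part on values under the floor. Isg15 ran from 181.2 to 619.1 on fresh and from 1142.4 to 5581.5 on cultured arrays, and Tnfrsf11a from 38.0 to 78.4 and from 110.6 to 286.4.

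Genes that act around IL-1 were taken as lists, 1 probe set a gene, chosen with earlier results of these data known. A list gene, like a member, could pass the filter through the groups in which it was high. The shares and medians of the lists are therefore given as a description only. Of the 28 tested genes of the signalling chain that IL-1 and Toll receptors share (30 on the array), 11 rose and 4 fell in the mean culture effect, with a median of 0.33. Over all 4735 genes tested, 760 rose and 1152 fell, with a median of -0.06. Map2k3, a kinase that activates p38, rose by 2.49 ± 0.15, from a mean of 353.8 to 1970.1, while Mapk14, p38 alpha itself, changed by -2.57 ± 0.18, from 2069.2 to 346.9. Nfkbib, an inhibitor of NF-kappaB, rose by 2.10 ± 0.25 and Nfkb2, an NF-kappaB subunit, by 1.57 ± 0.23. The limma adjusted p of these 4 was 1.24e-06, 2.99e-06, 0.000129 and 0.000484.

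Of the 12 tested genes of the inflammasome and IL-1 processing list (16 on the array), 5 rose and 3 fell, with a median of 0.46. Serpinb9, a serpin best known as an inhibitor of granzyme B, rose by 4.53 ± 0.25 (limma, adjusted p = 5.92e-07). Casp4, the inflammatory caspase that senses cytosolic lipopolysaccharide, rose by 1.84 ± 0.32, at least 1.63-fold (adjusted p = 0.00113), and by 0.80 with values set to the floor. Hsp90aa1, a heat shock chaperone, rose by 1.16 ± 0.20 and Txnip, a thioredoxin inhibitor, changed by -1.97 ± 0.27 (adjusted p = 0.00107 and 0.000279).

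Of the 24 tested genes that IL-1 or Toll signals commonly induce (36 on the array), 13 rose and 2 fell, with a median of 0.76. Tnfaip2, a TNF-induced gene, rose by 4.75 ± 0.43, with fresh arrays at -42.7 to 120.8, and Cxcl10, a chemokine for activated T cells, by 3.95 ± 0.41, at least 9.82-fold. Cxcl2, a neutrophil chemokine, rose by 2.68 ± 0.36, at least 2.25-fold, and Mmp9, a matrix protease, changed by -2.92 ± 0.37, at least 1.12-fold lower. The limma adjusted p of these 4 was 1.80e-05, 4.75e-05, 0.000264 and 0.000166. In CD8+ cells Mmp9 was below 0 in both states, at -38.3 and -18.9 fresh and -33.5 and -37.2 cultured. Its mean fall came from CD4+ and DN cells. Set to the floor, the change was 2.93 for Tnfaip2, 1.32 for Cxcl2 and -1.19 for Mmp9, and over all alternatives that of Tnfaip2 ran from 2.93 to 5.66. The 4 other IL-1 family ligands and receptors on the array and the 6 genes of IL-18 and IL-12 output in lymphocytes gave 0 tested genes, since none passed the filter. In all, 29 of 64 tested list genes rose and 9 fell, 59.4% against 40.4% called among all genes tested. Given how the lists and the filter were set, this share is not a test of the lists.

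**Figure D5:**
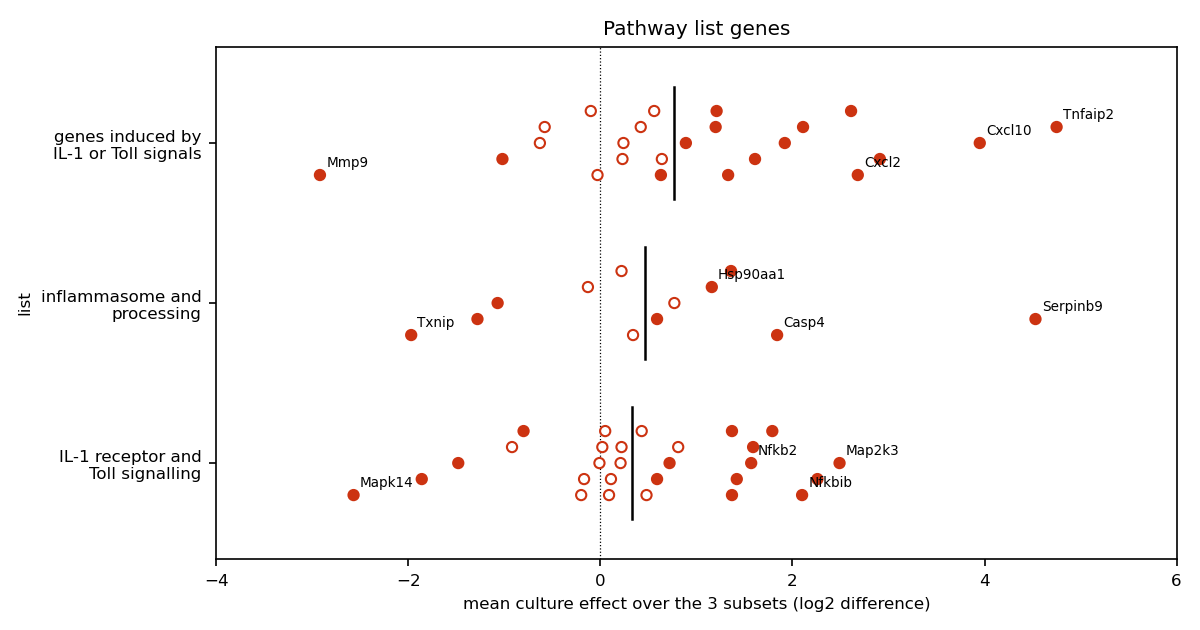
Mean culture effect (log2 difference) of each tested gene in the 3 pathway lists that had tested genes, 1 band of points a list (height within a band only separates points), with filled points for called genes, a vertical bar at each list's median and the genes named for this effect labelled. The medians of 0.33, 0.46 and 0.76 lie above the median of -0.06 over all genes, and each list has genes on both sides of 0.

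Between fresh subsets, Relb, an NF-kappaB subunit, was lower in CD8+ than in CD4+ cells by -2.11 ± 0.23 (limma, adjusted p = 0.000961), at 370.0 and 416.6 against 1796.9 and 1614.9. Serpinb9 was higher in CD8+ cells by 3.04 ± 0.43, at least 4.6-fold (adjusted p = 0.00377; 0.0592 without fresh CD4+ replicate 1). Mmp9 was lower by -4.80 ± 0.64, at least 3.68-fold (adjusted p = 0.00298; -1.96 with values set to the floor), and did not pass when the first (0.0883) or the second (0.0908) fresh CD4+ array was left out. Bcl3, an IkappaB-like coactivator, was lower in CD8+ than in DN cells by -1.80 ± 0.32, at least 3.1-fold (adjusted p = 0.0196). It was not called without any 1 of the 4 fresh CD8+ and DN arrays, at an adjusted p of 0.0625 to 0.28. Nfkb2 against DN cells (-1.34, adjusted p = 0.188) and Txnip against CD4+ cells (-1.36, 0.234) did not pass.

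In culture, Map3k1, a kinase upstream of JNK, was lower in CD8+ than in CD4+ cells by -1.97 ± 0.44 (limma, adjusted p = 0.046). Its call was lost under 18 of the 25 alternatives, among them leaving out either cultured CD8+ array (0.274 and 0.181). The same contrast did not pass for Map3k3 (-1.50, adjusted p = 0.147), Txnip (-1.15, 0.277), Hsp90aa1 (-1.32, 0.0806), Cxcl2 (2.03, 0.145) or Icam1 (1.02, 0.136).

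Markers of other cells that a spleen sort can hold were read on the same arrays. Neutrophils are known for high Il1r2. Of 15 neutrophil markers on the array 9 were never above the floor, S100a9, Ly6g, Cxcr2, Mpo, Ltf and Ngp among them. Csf3r was above it on 12 of 12 arrays (142.9 to 595.6), Camp on 7 (36.6 to 337.4) and Mmp9 on 4. A marker above the floor on fewer than 2 arrays was not tested for a culture effect. Of the neutrophil markers only Camp, Elane, Csf3r and Mmp9 were tested. Mmp9 fell. Camp (0.63), Elane (0.77) and Csf3r (0.51) had positive differences that were not called (limma, adjusted p = 0.291, 0.115 and 0.213). Over all tested probe sets 17.0% rose and 22.3% fell. The summed intensity of the 15 neutrophil markers was 423 to 1074 on fresh and 474 to 1526 on cultured arrays. Of 16 macrophage and monocyte markers, 3 were never above the floor (Mertk, Marco and Siglec1). After culture 3 rose (Cd14, 2.62; Hmox1, 1.81; Msr1, 0.84) and 6 fell (Adgre1, Csf1r, Lyz2, Ccr2, C1qa and C1qc). Their sum was 3120 to 6022 on fresh arrays, 7622 and 12001 on cultured CD8+ arrays, and 3781 to 5360 on the other cultured arrays. On the 2 cultured CD8+ arrays Hmox1 was 3053.4 and 7278.6 and Cd14 was 2225.7 and 2238.4, while Csf1r was 97.6 and 205.4 and Adgre1 was -5.7 and -31.3. The part of these markers in the Il1b, Il1rn, Il1r2 and Il18 values was not tested. Of 10 B cell markers, 1 was never above the floor and Ms4a1 and Pax5 were above it on 12 of 12 arrays. After culture 2 rose (Pax5 by 0.75 and Blk by 1.12) and 2 fell (Cd79b at -1.02 and Cd22 at -4.83). Cd22 was at 465.6 to 862.8 on fresh CD4+ and DN arrays, 14.8 and -2.8 on fresh CD8+ arrays, and below 0 on all cultured arrays. Of 9 stromal and endothelial markers, 3 were never above the floor, 2 rose (Col1a2, 0.86; Vim, 0.96) and 2 fell (Pecam1, -0.87; Vwf, -1.62). The part of both lists in the member values was not tested. The dendritic cell list had 2 of its 11 genes higher and 4 lower after culture, with Itgax at -0.86 (limma, adjusted p = 0.014) and Flt3 lower too (adjusted p = 0.00106), from 1616.8 to 3103.4 on fresh arrays to 613.1 to 1932.0 on cultured ones. Only Lat and Cd5 of the T cell markers and Klrd1 of the NK cell markers were tested for a culture effect, and none of these was called. Of 9 T cell and 6 NK cell markers, 7 and 4 were never above the floor. The T cell marker Lat (99.9 to 370.5) and the NK cell marker Klrd1 (113.4 to 1108.6) were above it on 12 of 12 arrays, and Cd5 on 7. Tcf4, Ly6d and Irf7 of the plasmacytoid dendritic cell markers and Kit and Ms4a2 of the basophil or mast cell markers were tested, and none was called. Of 5 plasmacytoid dendritic cell and 6 basophil or mast cell markers, 2 and 4 were never above the floor. Tcf4 and Irf7 of the former and Kit (292.9 to 1013.1) of the latter were above it on 12 of 12 arrays. The part of these lists in the member values was not tested.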

How the data were processed

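RNA of 12 sorted dendritic cell samples was measured on oligonucleotide arrays. The deposited intensities are, per the labels, Average Difference values after global scaling by the authors. Which software made them is not given in the sources used here, and no further normalization was applied. The table held 12488 probe sets, of which 66 controls were left out. The platform annotation gave 1 symbol to 10833 of the other 12422, several to 396 and none to 1193.

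Intensities x became log2((x + sqrt(x² + c²)) / 2) with c = 45.69, the root mean square of the values below 0 on each array, as a median of 12 arrays; the floor was 2 times c. The scale understates changes of dim probe sets, and values below 0 can inflate them. limma 3.58.1 (R 4.3.3) fitted 1 mean per group over 12 arrays (6 residual and a median of 5.09 prior degrees of freedom), with eBayes trend and robust estimation and Benjamini-Hochberg adjustment over 6159 probe sets; the fit was tested on simulated data. The number of arrays, 2 a group, limits the precision. A bound compares the bright group's log mean with, per array of the dim group, the higher of the floor and its own value.

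The members and the gene lists were chosen with earlier results of these data known. All member probe sets are named. From each list the text names up to 4 genes of lowest p in the mean culture effect and up to 2 each over the fresh and the cultured subset pairs, and for each called member the 3 most correlated genes. The lists were the signalling chain, inflammasome and processing, induced genes, other IL-1 family members, and lymphocyte outputs.

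The experiment numbers were checked as pairs. Deviations of same-numbered arrays from their group means correlated at 0.106 to 0.444 in all 15 pairs of groups. Replicate 1 also had the larger root mean square of values below 0 in each group, at 107.88 against 42.31 in cultured CD4+ cells. The correlations therefore cannot tell paired samples from a shared array quality. The main fit did not pair the arrays. The replicate block, an alternative, paired them by these numbers, which come from the titles. Alternatives changed the offset, floor, filter, normalization, eBayes settings, array weights, replicate block and arrays used. Python 3.11.15, pandas 2.3.3, numpy 2.4.6 and matplotlib 3.10.9 prepared tables and figures.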

Additional observations from a re-analysis of the deposited data

How the results depend on the processing

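The 25 alternatives included 12 that leave out 1 array each. Of 21 called member results 16 kept their call in all of those run, as did 13 of 17 called pathway results. The number of member probe sets called in the fresh subset comparisons, 1, became 2 with values set to the floor, 0 with only the groups compared and 2 when the 3 arrays of high Gapdh ratio were dropped; leaving out 1 array gave 0 to 1. The other counts of called members and of pathway genes stayed within 1.5 times. With the replicate block, Il1b passed in limma after culture in CD8+ cells (1.43, adjusted p = 0.0319) and DN cells (1.59, 0.0167). Il1r2 passed on its _f_at probe set in fresh CD8+ against CD4+ cells (-1.62, 0.0379). The block changed the call of no other member result and of none of the 17 called pathway results. Uncalled subset differences of the named list genes were not followed under the alternatives. The number of list genes called after culture went from 38 to 40 with the block. Some uncalled values changed sign. The Il1rn interaction was -0.80 (CD8+ against CD4+) and -0.19 (CD8+ against DN) with values set to the floor, and the latter ran from -0.04 to 1.47 when 1 array was left out. The Il1r2 _f_at interaction of CD8+ against DN was 0.09 without the arrays of high Gapdh ratio and ran from -1.44 to 0.03 when 1 array was left out. The mean culture effect of Casp1 was 0.06 without the arrays of high Gapdh ratio. The cause of these changes was not tested. Il18 has no value under the filter of 6 arrays, which it did not pass, and signal over background limits Il18, Casp1 and fresh Il1rn and Il1r2.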
